A study of Rattus norvegicus with 8 samples.

Results

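The complement and coagulation factors described here are the blood-borne proteases, cofactors, inhibitors and lytic proteins that hepatocytes secrete into plasma. They were chosen as a written list of 35 gene symbols and looked up by symbol in a table of 32545 genes. Of these, 34 symbols were found, in 35 rows, because C2 has 2 rows. A total of 34 rows held counts in the libraries and were tested. The row of Cfb was listed at 0 in every library, and the symbol C5 was not found. The livers were from rats of the outbred Sprague-Dawley stock, labelled as wild type. The 5 HFD libraries came from rats fed a high fat diet with 41% fat, 43% carbohydrate and 17% protein. The 3 ND libraries came from rats on a normal chow with 8.5% fat, 59.6% carbohydrate and 20.3% protein. Each diet had 12 rats, was fed for 24 weeks and followed a cycle of 12 h light and 12 h dark. The labels put the age at about 22 weeks, less than the feeding time, and this was not resolved. The study's design names long noncoding RNAs of livers with high blood triglycerides as its subject, and the gene counts of the same livers are used here to compare the diets.

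Coagulation is a chain of serine proteases that ends in thrombin, which turns fibrinogen into fibrin. Several of these proteases need a vitamin K-dependent modification in the hepatocyte before they can bind membranes, and plasma inhibitors of the serpin family and the protein C system hold them in check, while plasmin dissolves the clot. Complement is a related chain in which lectins, antibodies or spontaneous turnover activate C3 and then assemble a pore from C5 to C9, under regulators such as factor I and C4b-binding protein. The liver makes most of the plasma pool of these proteins, and several of them are also acute phase proteins.

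Promoter sequences from RefSeq (build GRCr8) were matched for 26 of the 35 symbols, with C5 among them, and the 250 bases before each gene start were searched on both strands for 6 short motifs of factors that act in hepatocytes or at gene starts. The motifs were GTTAAT (a half-site of HNF1), TTGCNNAA (C/EBP), CAAAGTCC (HNF4), TGTTTAC (FOXA), TTCNNNGAA (STAT) and TATAAA (the TATA box). GTTAAT occurred in 8 of the 26 promoters (30.8%), against 6.45% of all 33469 promoters, and TTGCNNAA occurred in another set of 8 (30.8%), against 9.22%, with C4bpa and C8a in both sets. TGTTTAC was in 4 of 26 (15.4%, against 3.21% of all) and TTCNNNGAA in 5 of 26 (19.2%, against 7.67%). CAAAGTCC and TATAAA were in none of the 26, against 1.14% and 12.9% of all promoters. The 4 promoters printed are those of C6, which had the largest fitted difference between the diets, of C3, the most abundant of the factors, and of C4bpa and C4bpb, neighbouring genes for the chains of one regulator. Each is the 250 bases up to the gene start in GRCr8, read 5′ to 3′ on the strand of the gene, with motif matches in capitals. The C6 window is chr2:55573383-55573632 on the plus strand, with a C/EBP match 176 to 169 bases before the start. The C3 window is chr9:2201340-2201589 on the minus strand, with a C/EBP match 104 to 97 bases before the start. The C4bpa window is chr13:44663472-44663721 on the minus strand, with a C/EBP match 243 to 236 and an HNF1 half-site 76 to 71 bases before the start. The C4bpb window is chr13:44683782-44684031 on the minus strand, with an HNF1 half-site 225 to 220, a STAT match 156 to 148 and a FOXA match 86 to 80 bases before the start. A match describes letters in a window and is not a measured binding site.
C6: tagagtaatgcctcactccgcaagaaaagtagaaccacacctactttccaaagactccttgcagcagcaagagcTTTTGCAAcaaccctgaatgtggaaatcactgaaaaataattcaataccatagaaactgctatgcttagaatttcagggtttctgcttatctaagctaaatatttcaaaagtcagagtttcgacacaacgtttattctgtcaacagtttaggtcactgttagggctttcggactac
C3: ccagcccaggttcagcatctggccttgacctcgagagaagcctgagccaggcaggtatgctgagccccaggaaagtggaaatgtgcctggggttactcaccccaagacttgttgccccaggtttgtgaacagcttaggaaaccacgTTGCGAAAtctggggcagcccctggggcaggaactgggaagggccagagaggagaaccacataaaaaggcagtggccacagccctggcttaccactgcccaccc
C4bpa: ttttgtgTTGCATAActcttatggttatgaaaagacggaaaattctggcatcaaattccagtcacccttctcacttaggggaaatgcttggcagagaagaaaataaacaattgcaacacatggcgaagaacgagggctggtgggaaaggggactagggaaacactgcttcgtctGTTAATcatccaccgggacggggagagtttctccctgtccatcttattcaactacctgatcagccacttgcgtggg
C4bpb: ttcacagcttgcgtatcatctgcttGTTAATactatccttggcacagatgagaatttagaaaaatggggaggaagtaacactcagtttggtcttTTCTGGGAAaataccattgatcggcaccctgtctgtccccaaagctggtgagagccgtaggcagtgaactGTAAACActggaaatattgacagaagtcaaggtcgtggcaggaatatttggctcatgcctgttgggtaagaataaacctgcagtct

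Gene counts per library totalled 12678616 to 36152937. The libraries formed a deep set of HFD-1, HFD-2, ND-1 and ND-3 (at least 30501673 counts each) and a shallow set of HFD-3 to HFD-5 and ND-2 (at most 18401981 counts each), so each set holds both diets. FPKM, counts scaled by gene length and library total, are used for levels. Summed over 10 hepatocyte markers, the level was 71728 to 75393 FPKM in HFD livers and 67282 to 73209 FPKM in ND livers. Alb, at a mean of 41909 FPKM over all libraries, made up most of this sum. Of the 10 markers, 5 were fitted above 0 and 5 below in edgeR, and 0 were called. Cps1 was lower in HFD livers (log2 fold change of HFD over ND -0.62, 95% interval -1.17 to -0.06, adjusted p = 0.836). Its log2 difference was -1.03 within the deep and -0.07 within the shallow libraries. Sums over 12 Kupffer cell and macrophage markers were 257 to 712 FPKM in HFD livers and 289 to 411 FPKM in ND livers, with HFD-3 the highest of the 8 libraries. HFD-3 also had the highest sum of 12 lymphocyte and neutrophil markers (49.7 FPKM, next 26.6 FPKM). Sums were 85.9 to 98.1 FPKM in HFD livers and 72.1 to 87.5 FPKM in ND livers for 9 endothelial markers, and 125 to 202 FPKM in HFD livers and 149 to 259 FPKM in ND livers for 10 stellate cell markers. Platelet and megakaryocyte markers (8, of which Gp1bb was listed at 0 throughout) summed to 7.83 to 15.6 FPKM in HFD livers and 7.80 to 16.01 FPKM in ND livers, and 6 cholangiocyte markers to 4.64 to 8.31 FPKM in HFD livers and 5.75 to 10.02 FPKM in ND livers. ND-3 stood apart in Dbp, a gene with a daily rhythm, at 1.55 FPKM against 15.9 to 36.5 FPKM elsewhere. The labels do not say more of how the libraries relate to the animals, so p-values measure the spread between these samples.

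The factors were among the abundant RNAs of these livers, and the share of the library they took up was close between the diets. Together they held 3.90%, 3.72%, 4.12%, 3.63% and 3.84% of all gene counts in HFD-1 to HFD-5, against 3.72%, 4.16% and 3.69% in ND-1 to ND-3. By mean FPKM over all 8 libraries, C3, the central protein on which all complement pathways converge, ranked 31st of all genes, and the next were Vtn (rank 48), Plg (rank 67), F2 (rank 79) and Serpinc1 (rank 107). C3 averaged 2531 ± 236 FPKM in HFD livers and 2598 ± 408 FPKM in ND livers (SD, n = 5 and n = 3, as in all such pairs that follow). The lowest levels belonged to F7 (rank 1582), which encodes the protease that starts coagulation with tissue factor, and to the longer C2 row (rank 4167). F7 averaged 34.4 ± 3.98 FPKM in HFD livers and 37.3 ± 6.75 FPKM in ND livers. The range of mean levels over the 34 rows was thus 11.1 to 2556 FPKM.

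**Figure D1:**
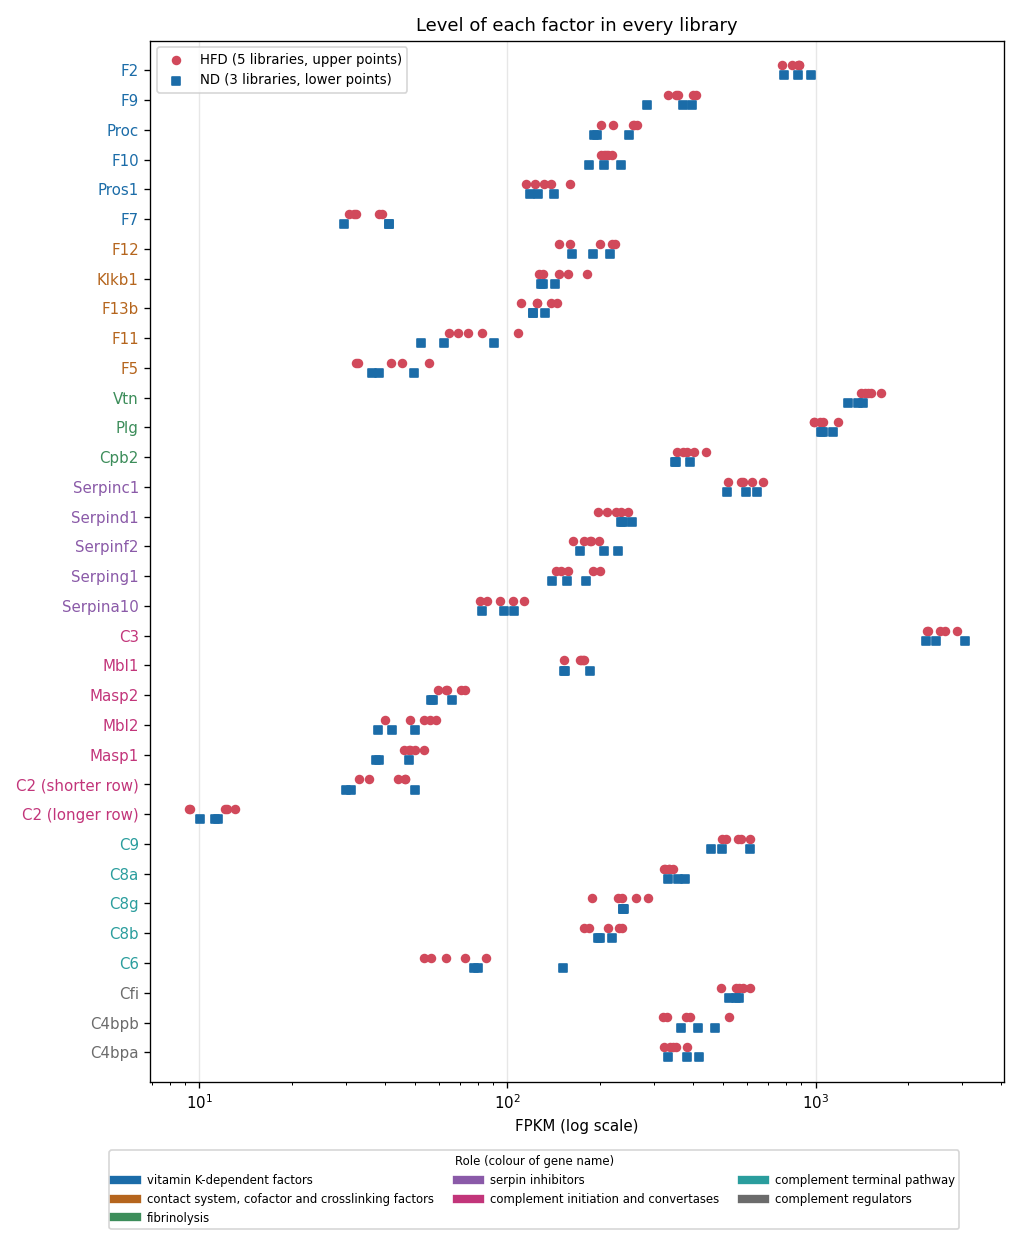
Level in FPKM (log scale) of each factor in every library, with the 5 HFD libraries as circles above the 3 ND libraries as squares and gene names coloured by role. The circles and squares overlap in every row.

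No factor was called higher or lower in HFD livers. In edgeR's quasi-likelihood test 0 of 34 rows had an adjusted p under 0.05, where 0.00707% of all 14148 genes tested (1 gene) did. At an unadjusted p under 0.05, 1 of 34 rows (C6, lower) passed, or 2.94%, beside 5.71% of all genes, of which 2.88% were higher and 2.83% lower. DESeq2 called 0 of 34, beside 0.968% of all genes, and 1 of 34 at an unadjusted p under 0.05, beside 6.1% of all genes. The ranges of the diets overlapped in all 34 rows, while they were apart in 3.89% of all genes tested (2.25% higher and 1.65% lower in HFD livers). In bulk tissue, fewer cells of a type and less RNA per cell cannot be told apart. Adjusted p-values of the 34 rows ran from 0.749 to 1.00.

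The intervals give the size of difference these libraries leave possible. The median log2 fold change (HFD over ND) of the 34 rows was 0.01, with 21 fitted above 0 and 13 below, and the median size was 0.07, against 0.14 over all genes tested and 0.11 over the 4167 genes at or above the lowest factor row, the longer C2 row. Since the other 33 rows all ranked within the first 1582 genes, higher floors are given too. The members were chosen with earlier results of these data known, so the shares that follow describe the list and do not test it. The fitted size was under 0.25 in 33 of 34 rows (97.1%), against 70.5% of all genes, 78.5% of the 4167, 74.1% of the 1582 genes at or above F7 and 75.0% of the 316 genes at or above the median factor (198 FPKM). The 95% interval lay within ±0.5, a 1.41-fold difference, for 29 of 34 rows (85.3%), against 36.4% of all genes, 56.9% of the 4167, 52.3% of the 1582 and 50.3% of the 316, which include 17 of the factors, all 17 within ±0.5. The 5 exceptions were C6, F11, Mbl2, Masp1 and the shorter C2 row, and C6 alone had an interval that passed ±1. Within a diet, the median coefficient of variation of the factors was 10.02% among HFD livers and 11.7% among ND livers, against 14.9% among HFD livers and 13.2% among ND livers for the 1582 genes.

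**Figure D2:**
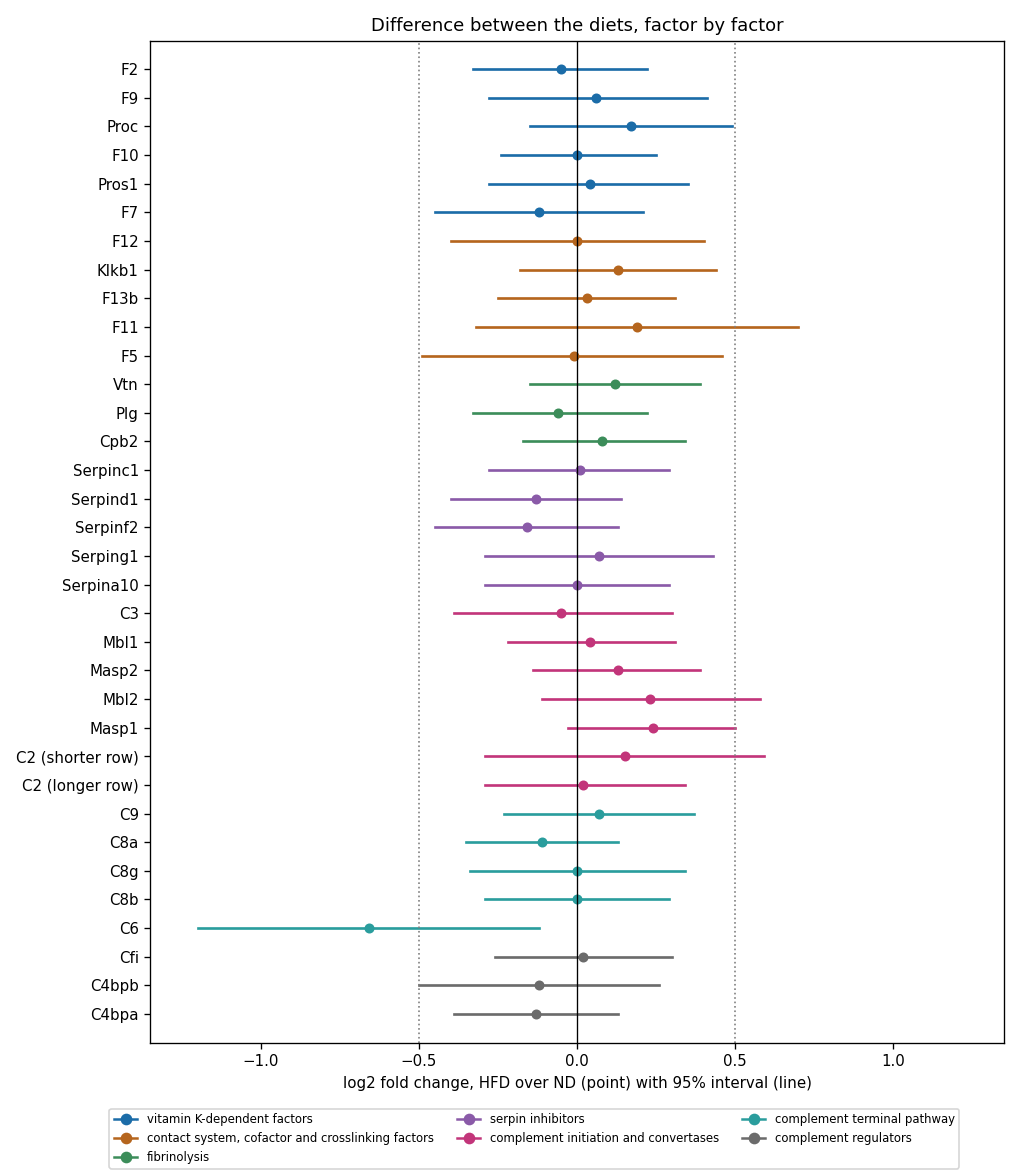
Fitted log2 fold change of each of the 34 rows (HFD over ND, points) with its 95% interval (lines), coloured by role; dotted lines mark ±0.5. The interval of C6 alone lies clear of 0, and the other points lie between -0.16 and 0.24.

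**Figure D3:**
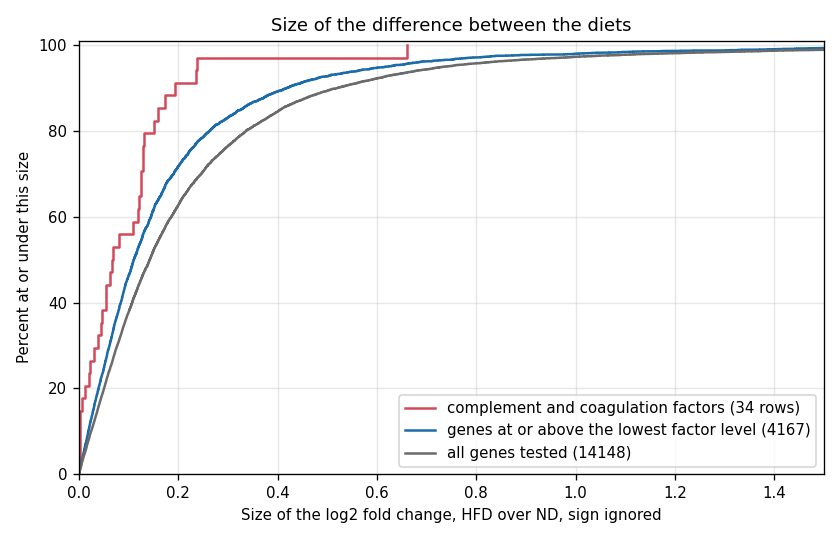
Percent of features (vertical axis) whose size of log2 fold change is at or under the value on the horizontal axis, which ends at 1.5, for the 34 factor rows, the 4167 genes at or above the lowest factor row and all 14148 genes tested. The curve of the factors reaches 97.1% before 0.25, and its last step is C6.

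Among the 6 vitamin K-dependent factors, 4 were fitted above 0 and 2 below, between -0.12 and 0.17 on the log2 scale. Proc encodes protein C, which once activated cuts factors V and VIII, and was at 221, 201, 264, 257 and 256 FPKM in HFD-1 to HFD-5, against 196, 248 and 191 FPKM in ND-1 to ND-3. HFD-3, HFD-4, HFD-5 and ND-2 were the high samples, which are the 4 shallow libraries, and the diets overlapped (log2 fold change 0.17, 95% interval -0.15 to 0.49, leave-one-out range 0.11 to 0.27, adjusted p = 0.993). F7 was at 31.8, 30.6, 38.3, 32.3 and 39.1 FPKM in HFD-1 to HFD-5, against 29.5, 41.2 and 41.2 FPKM in ND-1 to ND-3. ND-1 was the lowest of all 8 samples and ND-2 and ND-3 the highest, so the HFD samples lay inside the ND range (log2 fold change -0.12, 95% interval -0.45 to 0.21, leave-one-out range -0.24 to -0.04). F10, for the protease that activates prothrombin, lies 1395 bases from F7 on chromosome 16 and was the higher of the pair in every library, with an F7 to F10 ratio of 0.150 to 0.186 in HFD livers and 0.160 to 0.200 in ND livers. F10 averaged 209 ± 6.30 FPKM in HFD livers and 208 ± 24.7 FPKM in ND livers (log2 fold change 0.00, 95% interval -0.24 to 0.25). F2, the gene of prothrombin, averaged 853 ± 44.7 FPKM in HFD livers and 879 ± 87.5 FPKM in ND livers (log2 fold change -0.05, 95% interval -0.33 to 0.22). F9, for the protease that is missing in haemophilia B, averaged 371 ± 32.9 FPKM in HFD livers and 350.5 ± 59.6 FPKM in ND livers (log2 fold change 0.06, 95% interval -0.28 to 0.41). Pros1 encodes protein S, the cofactor of protein C, and averaged 134 ± 17.2 FPKM in HFD livers and 128 ± 11.8 FPKM in ND livers (log2 fold change 0.04, 95% interval -0.28 to 0.35).

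In the contact system and the cofactors, none of 5 rows passed the test. F11 (factor XI, chr16:50179458-50201698 in Rnor_6.0) was at 82.9, 64.6, 108, 74.4 and 68.9 FPKM in HFD-1 to HFD-5, against 90.5, 52.5 and 62.4 FPKM in ND-1 to ND-3. HFD-3 was the highest, ND-1 came next, and ND-3 and ND-2 were the lowest, so the diets overlapped (log2 fold change 0.19 ± 0.23 (SE), 95% interval -0.32 to 0.70, leave-one-out range 0.01 to 0.48, adjusted p = 0.993). Its fitted difference was 0.01 without ND-2, 0.06 without HFD-3 and 0.48 without ND-1. Klkb1 encodes plasma prekallikrein, the partner of factor XII, and lies 4000 bases from F11. It was at 181, 157, 147, 130.4 and 127 FPKM in HFD-1 to HFD-5, against 143, 131 and 128 FPKM in ND-1 to ND-3, with HFD-1 highest and HFD-5 lowest, so the HFD samples spanned the ND samples (log2 fold change 0.13, 95% interval -0.18 to 0.44, leave-one-out range 0.05 to 0.21). Without HFD-1 the Klkb1 value was 0.05, and without ND-1 it was 0.21. The ratio of Klkb1 to F11 was 1.36 to 2.43 in HFD livers and 1.58 to 2.49 in ND livers. F12, which starts the contact pathway, averaged 189.7 ± 34.4 FPKM in HFD livers and 189 ± 27.02 FPKM in ND livers (log2 fold change 0.00, 95% interval -0.40 to 0.40). F5, for the cofactor of factor X, averaged 41.6 ± 9.63 FPKM in HFD livers and 41.4 ± 7.29 FPKM in ND livers (log2 fold change -0.01, 95% interval -0.49 to 0.46). F13b, for the carrier subunit of the fibrin-crosslinking enzyme, averaged 129 ± 13.3 FPKM in HFD livers and 125 ± 6.58 FPKM in ND livers (log2 fold change 0.03, 95% interval -0.25 to 0.31).

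The 3 fibrinolysis genes and 5 serpins all had 95% intervals within ±0.5, and none passed the test. Vtn encodes vitronectin, a plasma protein that stabilises the inhibitor PAI-1, and was at 1518, 1444, 1633, 1409 and 1479.5 FPKM in HFD-1 to HFD-5, against 1378, 1431 and 1274 FPKM in ND-1 to ND-3. HFD-1, HFD-2, HFD-3 and HFD-5 were above all ND samples and HFD-4 lay between ND-1 and ND-2 (log2 fold change 0.12, 95% interval -0.15 to 0.39, leave-one-out range 0.08 to 0.16, adjusted p = 0.993). Cpb2, which encodes the fibrinolysis inhibitor TAFI, was at 442, 402, 371, 383 and 355 FPKM in HFD-1 to HFD-5, against 353, 351 and 391 FPKM in ND-1 to ND-3. HFD-1 and HFD-2 were above every ND sample, and HFD-3, HFD-4 and HFD-5 lay within the ND range (log2 fold change 0.08, 95% interval -0.17 to 0.34, leave-one-out range 0.02 to 0.14). Plg, the gene of plasminogen, averaged 1051 ± 79.9 FPKM in HFD livers and 1081 ± 54.2 FPKM in ND livers (log2 fold change -0.06, 95% interval -0.33 to 0.22). Of the serpins, Serpinf2, for the plasmin inhibitor, was at 178, 163, 198, 186 and 187 FPKM in HFD-1 to HFD-5, against 206, 229 and 172 FPKM in ND-1 to ND-3. HFD-2 lay below the ND range and the other 4 HFD samples within it (log2 fold change -0.16, 95% interval -0.45 to 0.13, leave-one-out range -0.26 to -0.10). Serpind1, for heparin cofactor II, was at 246, 234, 211, 196 and 225 FPKM in HFD-1 to HFD-5, against 237, 234 and 253 FPKM in ND-1 to ND-3. Its 3 lowest values were those of HFD-4, HFD-3 and HFD-5, and HFD-1 and HFD-2 lay within the ND range (log2 fold change -0.13, 95% interval -0.40 to 0.14, leave-one-out range -0.18 to -0.08). The row of Serpind1 lies inside that of Pi4ka, which averaged 6.03 FPKM, and whether strand was used in the authors' counting is not stated. Serpinc1 (antithrombin) averaged 594 ± 57.8 FPKM in HFD livers and 586 ± 64.04 FPKM in ND livers (log2 fold change 0.01, 95% interval -0.28 to 0.29), Serping1 (C1 inhibitor) 168 ± 25.4 FPKM in HFD livers and 158 ± 20.2 FPKM in ND livers (log2 fold change 0.07, 95% interval -0.29 to 0.43) and Serpina10 (the protein Z-dependent inhibitor of factor X) 95.8 ± 12.8 FPKM in HFD livers and 95.01 ± 11.2 FPKM in ND livers (log2 fold change 0.00, 95% interval -0.29 to 0.29).

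Of the 7 complement initiation rows, 6 were fitted above 0, beside 7248 of all 14148 genes tested. None passed the test, and the fitted log2 fold changes were -0.05 to 0.24. Masp1, Masp2 and Mbl2 were above 0 within both depth sets, while Mbl1 and both C2 rows had opposite signs in the deep and shallow libraries. Masp1 encodes a protease bound to mannose-binding lectin that starts the lectin pathway. It was at 53.5, 50.05, 47.8, 48.1 and 46.2 FPKM in HFD-1 to HFD-5, against 37.4, 38.3 and 48.01 FPKM in ND-1 to ND-3. HFD-1, HFD-2 and HFD-4 were above all ND samples, while ND-3 at 48.0 FPKM was above HFD-3 and HFD-5 (log2 fold change 0.24 ± 0.12 (SE), 95% interval -0.03 to 0.50, leave-one-out range 0.16 to 0.36, adjusted p = 0.930). Within the deep libraries the log2 difference was 0.29 and within the shallow ones 0.31, and the fitted value was 0.36 without ND-3 and 0.16 without ND-2. Masp2, which encodes the protease that cuts C4 and C2, averaged 65.9 ± 5.61 FPKM in HFD livers and 60.05 ± 5.19 FPKM in ND livers (log2 fold change 0.13, 95% interval -0.14 to 0.39).

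Rats, like mice, have a pair of mannose-binding lectin genes, whose products recognise sugars on microbes. Mbl2 was at 48.3, 39.9, 56.01, 53.5 and 58.8 FPKM in HFD-1 to HFD-5, against 42.2, 49.99 and 37.9 FPKM in ND-1 to ND-3. HFD-3, HFD-4 and HFD-5 were above all ND samples and HFD-1 and HFD-2 lay within the ND range (log2 fold change 0.23, 95% interval -0.11 to 0.58, leave-one-out range 0.15 to 0.32, adjusted p = 0.993). Mbl1 was at 153, 176, 173, 172 and 177 FPKM in HFD-1 to HFD-5, against 152, 153 and 185 FPKM in ND-1 to ND-3. HFD-1 was level with ND-1 and ND-2, the other 4 HFD samples sat close together, and ND-3 was the highest (log2 fold change 0.04, 95% interval -0.22 to 0.31, leave-one-out range -0.03 to 0.14). Mbl1 was thus above Mbl2 in every library, by 3.01 to 4.40 times in HFD livers and 3.07 to 4.89 times in ND livers.

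The rows of C2 and Cfb share one stretch of chromosome 20 in Rnor_6.0, so their values are uncertain. C2 is the protease part of the classical convertase and Cfb that of the alternative convertase. The Cfb row (chr20:4536263-4561062) was listed at 0 in every library and covers nearly all of both C2 rows, sharing 6685 of the 6745 bases of the shorter and 18723 of the 18813 bases of the longer. The shorter C2 row (chr20:4536203-4542947) averaged 41.1 ± 6.48 FPKM in HFD livers and 37.05 ± 11.4 FPKM in ND livers (log2 fold change 0.15, 95% interval -0.29 to 0.59). The longer C2 row (chr20:4542340-4561152) averaged 11.2 ± 1.78 FPKM in HFD livers and 10.9 ± 0.779 FPKM in ND livers (log2 fold change 0.02, 95% interval -0.29 to 0.34). The shorter C2 row also shares 7 bases with that of Nelfe. How the authors' counting divided reads between these rows is not stated, and the rows listed as C2 may hold reads of Cfb.

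In the terminal pathway, whose products build the membrane pore, C6 had the largest fitted difference of all 34 rows and the other 4 rows lay between -0.11 and 0.07. C6 (chr2:54466280-54533797 in Rnor_6.0) encodes the protein that binds C5b and begins the pore, and its promoter with the C/EBP match is printed above. It was at 56.6, 72.6, 85.1, 63.3 and 53.5 FPKM in HFD-1 to HFD-5, against 77.6, 80.4 and 152 FPKM in ND-1 to ND-3. HFD-1, HFD-2, HFD-4 and HFD-5 were below all ND samples, and HFD-3 lay between ND-2 and ND-3, which was the highest sample. C6 averaged 66.2 ± 12.9 FPKM in HFD livers and 103 ± 42.2 FPKM in ND livers (log2 fold change -0.66 ± 0.24 (SE), 95% interval -1.20 to -0.12, adjusted p = 0.749, unadjusted p = 0.0213). Without ND-3 the fitted log2 fold change was -0.27 (adjusted p = 1.000) and the unadjusted p was no longer under 0.05, and over the leave-one-out fits it ran from -0.83 to -0.27. ND-3 is the library that stood apart in Dbp, and the part of this in its C6 level was not tested. Within the deep libraries, which hold ND-3, the log2 difference was -0.76, and within the shallow libraries it was -0.29.

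The other pore genes had smaller fitted differences. C9, for the subunit that polymerises into the pore wall, averaged 551 ± 45.2 FPKM in HFD livers and 523 ± 81.3 FPKM in ND livers (log2 fold change 0.07, 95% interval -0.23 to 0.37). The ratio of C6 to C9 was 0.331 in ND-3 and 0.0954 to 0.156 in the other 7 libraries. C8a, for the alpha chain of C8, was at 334, 346, 323, 325 and 333 FPKM in HFD-1 to HFD-5, against 332, 378 and 357 FPKM in ND-1 to ND-3. ND-2 and ND-3 were above every HFD sample and ND-1 lay within the HFD range (log2 fold change -0.11, 95% interval -0.35 to 0.13, leave-one-out range -0.13 to -0.10). C8b, for the beta chain, lies 10408 bases from C8a and averaged 208 ± 26.4 FPKM in HFD livers and 205 ± 11.8 FPKM in ND livers (log2 fold change 0.00, 95% interval -0.29 to 0.29). The C8a to C8b ratio was 1.45 to 1.88 in HFD livers and 1.63 to 1.92 in ND livers. C8g, for the gamma chain, averaged 239.5 ± 36.8 FPKM in HFD livers and 238 ± 0.740 FPKM in ND livers (log2 fold change 0.00, 95% interval -0.34 to 0.34), and its row shares 363 bases with that of Fbxw5. C5, the precursor of the anaphylatoxin C5a and of the pore's first subunit, was not in the table under that symbol. A row named Hc, a symbol the RefSeq gene table of GRCr8 gives as a synonym of C5, was looked up after other values were seen. Hc was at 195, 227, 275, 168 and 198 FPKM in HFD-1 to HFD-5, against 108, 232 and 206 FPKM in ND-1 to ND-3, with HFD-3 the highest, ND-1 the lowest and the other 4 HFD samples within the ND range (log2 fold change 0.22, 95% interval -0.32 to 0.76). A shorter row beside it on chromosome 3, RGD1308742, described in the deposited table as similar to the C5 precursor, averaged 34.4 ± 6.80 FPKM in HFD livers and 40.5 ± 11.7 FPKM in ND livers (log2 fold change -0.25, 95% interval -0.77 to 0.26).

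The regulators differed by no more than 0.13 in size. C4bpa and C4bpb encode the alpha and beta chains of C4b-binding protein, which helps factor I to cut C4b and carries protein S in plasma, and lie 9470 bases apart on chromosome 13. C4bpa was at 322, 383, 352, 336 and 346 FPKM in HFD-1 to HFD-5, against 332, 419.8 and 382 FPKM in ND-1 to ND-3. ND-2 was the highest, HFD-2 and ND-3 came next, and ND-1 was among the lowest (log2 fold change -0.13, 95% interval -0.39 to 0.13, leave-one-out range -0.19 to -0.08). C4bpb was at 391, 524, 379, 329 and 319.8 FPKM in HFD-1 to HFD-5, against 366, 415 and 472 FPKM in ND-1 to ND-3. HFD-2 was the highest and HFD-5 the lowest, so the HFD samples spanned the ND samples (log2 fold change -0.12, 95% interval -0.50 to 0.26, leave-one-out range -0.24 to -0.02). The ratio of C4bpa to C4bpb was 0.732 to 1.08 in HFD livers and 0.809 to 1.01 in ND livers, and by depth 0.732 to 0.907 in the deep libraries and 0.930 to 1.08 in the shallow ones. Cfi, the gene of factor I, averaged 560.2 ± 44.2 FPKM in HFD livers and 547 ± 22.2 FPKM in ND livers (log2 fold change 0.02, 95% interval -0.26 to 0.30).

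**Figure D4:**
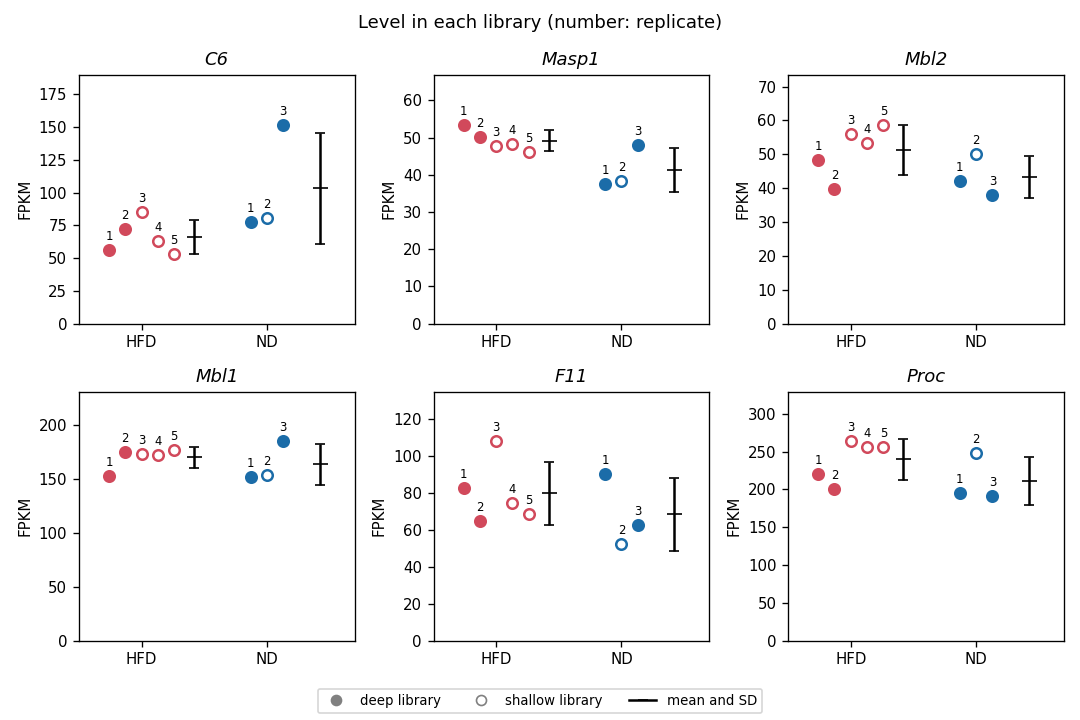
Level in FPKM in each library (numbers are replicates) of C6, Masp1, Mbl2, Mbl1, F11 and Proc, with HFD left of ND, filled circles for deep libraries, open circles for shallow ones, and bars for mean and SD. ND-3 stands at 152.0 FPKM in the C6 panel, and in the Proc panel the 4 open circles lie above all filled ones.

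The depth sets also differed in some of these genes, at a share near that of all genes. Between the shallow and the deep libraries the ranges did not overlap in 7 of 34 rows (20.6%), where 16% of all genes tested did so. Masp2, Mbl2, F12, Proc and the shorter C2 row were higher in the shallow libraries (5 of 34, beside 9.12% of all genes), and F9 and Serpind1 lower (2 of 34, beside 6.91% of all genes). Proc was at 248 to 264 FPKM in the shallow libraries and 191 to 221 FPKM in the deep ones. The ratio of Proc to F9 was 0.716 to 0.876 in the shallow libraries and 0.481 to 0.551 in the deep ones, and it was 0.490 to 0.771 in HFD livers and 0.481 to 0.876 in ND livers. Within the deep libraries the log2 difference between the diets had a median of 0.06 over the 34 rows (-0.76 to 0.32), and within the shallow ones, which hold 1 ND library, a median of -0.02 (-0.29 to 0.64). The 2 depth sets gave the same sign in 17 rows, 9 above 0 and 8 below, and opposite signs in the other 17.

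Beside the factors, 4 lists of other genes of these pathways held 83 tested rows. edgeR called 0 of them and DESeq2 called 1, and 8 (9.64%) had an unadjusted p under 0.05 in edgeR, beside 5.71% of all genes. Of 25 other coagulation and fibrinolysis genes, 11 were fitted above 0 and 14 below, with a median of -0.01, and 0 had an unadjusted p under 0.05. The fibrinogen alpha chain gene Fga averaged 1432 ± 104 FPKM in HFD livers and 1644 ± 22.3 FPKM in ND livers, and the ranges of the diets did not overlap (log2 fold change -0.21, 95% interval -0.49 to 0.07, adjusted p = 0.975). Fgb, for the beta chain, averaged 1359 ± 132 FPKM in HFD livers and 1581 ± 135 FPKM in ND livers (log2 fold change -0.23, 95% interval -0.54 to 0.08). Fgg, for the gamma chain, averaged 2225 ± 216 FPKM in HFD livers and 2428 ± 176 FPKM in ND livers (log2 fold change -0.14, 95% interval -0.43 to 0.16). The ranges of the diets overlapped for Fgb and Fgg. Proz, for the vitamin K-dependent protein Z, was at 60.9, 54.4, 56.1, 66.9 and 71.1 FPKM in HFD-1 to HFD-5, against 53.1, 53.4 and 49.04 FPKM in ND-1 to ND-3. Every HFD sample was above every ND sample, yet the test was not passed (log2 fold change 0.24, 95% interval -0.06 to 0.55, adjusted p = 0.962). Plaur, for the receptor of urokinase, was near or under 1 FPKM in every library (log2 fold change 1.20, 95% interval -0.03 to 2.43).

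Of 31 other complement genes, 16 were fitted above 0 and 15 below. At an unadjusted p under 0.05 in edgeR, 3 of 31 were higher in HFD livers, beside 2.88% of all genes. At that threshold 0 of 31 were lower, beside 2.83% of all genes. Cr1l, for a membrane regulator that protects rodent cells from complement, was at 28.6, 20.7, 25.5, 28.00 and 23.3 FPKM in HFD-1 to HFD-5, against 19.2, 19.7 and 19.5 FPKM in ND-1 to ND-3. All HFD samples were above all ND samples (log2 fold change 0.36, 95% interval 0.08 to 0.63, adjusted p = 0.697). Clu encodes clusterin, which blocks pore assembly, and was at 308, 296, 364, 279 and 268 FPKM in HFD-1 to HFD-5, against 218, 241 and 253 FPKM in ND-1 to ND-3, again with no overlap (log2 fold change 0.34, 95% interval 0.05 to 0.63, adjusted p = 0.801). Itgax, for a complement receptor subunit of myeloid cells, averaged 0.491 ± 0.144 FPKM in HFD livers and 0.277 ± 0.0398 FPKM in ND livers (adjusted p = 0.724). Its row had 15 to 68 counts per library and lies inside that of Itgam, fitted at -0.27. Clu and Itgax no longer had an unadjusted p under 0.05 without ND-1 or without ND-2. Cr1l kept one whichever library was left out, though not with the replicate number as a block.

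Of the 11 rows for the vitamin K cycle and the secretion of factors, edgeR called 0. At an unadjusted p under 0.05, 2 of 11 were lower, beside 2.83% of all genes, and 0 higher, beside 2.88%. The fitted value was below 0 in 10 of 11, with a median of -0.24 beside 0.01 over all genes tested. Within the deep libraries 6 were below 0 and 5 above (median -0.01), and within the shallow libraries, where ND-2 is the single ND library, 10 were below 0 (median -0.41). Pcsk5 encodes a proprotein convertase and was at 2.30, 2.97, 2.51, 2.86 and 2.45 FPKM in HFD-1 to HFD-5, against 3.23, 4.38 and 3.95 FPKM in ND-1 to ND-3. Every HFD sample was below every ND sample (log2 fold change -0.56 ± 0.13 (SE), 95% interval -0.85 to -0.28, adjusted p = 0.276). DESeq2 gave the same gene an adjusted p of 0.0318, under its threshold, and the log2 difference was -0.45 within the deep and -0.75 within the shallow libraries. Furin, for another proprotein convertase, was the 1 row of 11 fitted above 0 (log2 fold change 0.42, 95% interval -0.11 to 0.95). It averaged 54.5 ± 14.6 FPKM in HFD livers and 40.5 ± 7.87 FPKM in ND livers. The log2 difference of Furin was 0.10 within the deep and 0.43 within the shallow libraries. Vkorc1 encodes the reductase that recycles vitamin K and was at 31.6, 34.7, 29.4, 31.9 and 29.5 FPKM in HFD-1 to HFD-5, against 34.2, 42.1 and 46.5 FPKM in ND-1 to ND-3. HFD-2 alone reached the ND range, just above ND-1 (log2 fold change -0.39, 95% interval -0.65 to -0.14, adjusted p = 0.510). Mcfd2, a cargo receptor subunit for factors V and VIII, averaged 105 ± 14.2 FPKM in HFD livers and 126 ± 18.7 FPKM in ND livers (log2 fold change -0.28, 95% interval -0.57 to 0.01), with a log2 difference of 0.01 within the deep and -0.60 within the shallow libraries.

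Of 16 hepatocyte transcription factor genes, 11 were fitted above 0 and 5 below, and 0 were called by edgeR or DESeq2. At an unadjusted p under 0.05 in edgeR, 2 were higher and 1 lower, beside 2.88% and 2.83% of all genes. Foxa3, which encodes a factor of the FOXA family, was at 10.5, 20.6, 16.6, 16.7 and 19.2 FPKM in HFD-1 to HFD-5, against 9.34, 10.96 and 8.73 FPKM in ND-1 to ND-3. ND-2 was above HFD-1, and the other 4 HFD samples were above all ND samples (log2 fold change 0.78, 95% interval 0.30 to 1.26, adjusted p = 0.457). Ppara, for a fatty acid-sensing nuclear receptor, averaged 52.1 ± 18.03 FPKM in HFD livers and 26.1 ± 11.3 FPKM in ND livers (log2 fold change 0.98, 95% interval 0.18 to 1.77, adjusted p = 0.749). It was lowest in ND-3 (16.7 FPKM), the library that stood apart in Dbp. The unadjusted p of Ppara was no longer under 0.05 without ND-2, without ND-3 or with the depth set as a covariate. Onecut1, for the factor HNF6, averaged 3.17 ± 1.72 FPKM in HFD livers and 10.2 ± 10.4 FPKM in ND livers, and ND-2 was at 22.00 FPKM (log2 fold change -1.64, 95% interval -3.07 to -0.20, adjusted p = 0.818). Its log2 difference was 0.33 within the deep and -3.55 within the shallow libraries, which hold ND-2. The unadjusted p of Onecut1 was no longer under 0.05 without ND-2, without HFD-4 or without HFD-5. It was also not under 0.05 with the depth set as a covariate or with the replicate number as a block. Of 16 acute phase genes, 3 were fitted above 0 and 13 below, and edgeR called 0. Lbp was the 1 gene of 16 with an unadjusted p under 0.05 in edgeR, beside 5.71% of all genes. It was also the 1 gene that DESeq2 called, beside 0.968% of all genes. Lbp, for the binding protein of bacterial lipopolysaccharide, was at 18.4, 17.6, 31.5, 20.8 and 22.00 FPKM in HFD-1 to HFD-5, against 10.2, 11.1 and 9.45 FPKM in ND-1 to ND-3, with all HFD samples above all ND samples (log2 fold change 1.09, 95% interval 0.65 to 1.53, adjusted p = 0.121 in edgeR and 0.000116 in DESeq2).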

How the data were processed

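Total RNA of rat livers was made into libraries with a TruSeq kit, per the labels' protocols. Reads were processed with TopHat2 2.0.9, Cufflinks 2.2.1 and Cuffdiff on the build Rnor_6.0, per the submitters' processing notes; the sources used here do not give the annotation release, the use of strand or the tool behind each column. Per gene and sample, the authors deposited counts (whole numbers) and FPKM, and the FPKM equal counts scaled by gene length and library total (gene lengths implied by the samples differ by at most a relative 0.000764). All columns were mapped to samples by the titles (0 unmapped), and groups come from the titles. Counts were tested with edgeR 4.0.16 in R 4.3.3 (TMM scaling, filterByExpr, quasi-likelihood test of diet, 2-sided) on all 8 libraries. Of 32545 genes, 14148 were kept, p-values were adjusted by Benjamini-Hochberg over all of them, and an adjusted p under 0.05 counted as a call. Log2 fold changes, SE and 95% intervals come from this fit; means ± SD are of FPKM. DESeq2 1.42.0 and 13 further settings were alternatives. The test was also run on simulated counts with the same spread for every gene and no difference between the depth sets. Because the real libraries differ in both respects, that run does not give the power of the test here. Replicates of a diet differed by more than sampling noise (lowest chi-square per degree of freedom 24.2).

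The members and gene lists were chosen with earlier results of these data known. Values in every sample are given for the 2 factors per role with the smallest p and for those set apart by an outlying sample. They are also given for genes of other lists among the 3 with the smallest p. Fga, Fgg, Furin, Hc, RGD1308742, Alb, Cps1, Itgam and genes named in the closing observations were chosen after their values were seen. Coordinates of genes are in Rnor_6.0 as in the deposited table, and promoter windows in GRCr8, since no genome of the files' build was used here.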

Additional observations from a re-analysis of the deposited data

Results flagged for a closer look

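Among 46 sets of 5 HFD values checked, 2 held a sample far from the others by Dixon's test (critical value 0.71), where chance flags about 1 in 20. Mbl1 was lowest in HFD-1, at 153 FPKM, with the other 4 HFD livers at 172 to 177 FPKM and ND livers at 152 to 185 FPKM; the gap was 0.807 of the HFD range. The ratio of Mbl1 to Mbl2 was highest in HFD-2, at 4.40, with the other 4 HFD livers at 3.01 to 3.22 and ND livers at 3.07 to 4.89; the gap was 0.848 of the HFD range. In both cases the HFD sample set apart lies within the range of the ND livers.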

How the results depend on the processing

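No factor was called in any of 14 other settings: DESeq2's size factors, library size alone, no filter on low counts, the DESeq2 test, the depth set as a covariate, a replicate block, and each of the 8 libraries left out in turn. C6 kept an unadjusted p under 0.05 in all of them except the depth covariate (-0.61) and the fit without ND-3 (-0.27), where Masp1 had one instead. The DESeq2 test called 1 of the other pathway genes, Pcsk5; the other settings called 0, and leaving out 1 library gave 4 to 15 genes at an unadjusted p under 0.05. Of 210 refitted values of 15 named factors, 208 kept direction and side of the threshold. The sign turned for C4bpb under the replicate block (0.01, against -0.12) and for Mbl1 without ND-2 (leave-one-out range -0.03 to 0.14); the cause was not tested. For C6 and the other 12 named factors the leave-one-out ranges kept 1 sign. The replicate numbers did not pair the samples: same-numbered libraries had correlations of 0.114, -0.28 and 0.0771. Of HFD-1 to HFD-3, 0 correlated best with the ND library of their own number. With that block 0 factors were called. Scaling moved the median of all genes by 0.015 or less on the log2 scale. The smaller group holds 3 libraries, and the shallow set 1 ND library. The estimated biological coefficient of variation between libraries was 26%.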

Other observations

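C1qa, C1r, C1s and C4b, genes of the classical complement pathway picked here after their values were seen, were highest in HFD-3, the liver with the highest summed macrophage, lymphocyte and neutrophil markers. C1qa, which macrophages express and which is one of those markers, was at 136 FPKM in HFD-3, 51.9 to 72.6 FPKM in the other 4 HFD livers and 52.8 to 85.1 FPKM in ND livers. C1r, for the first protease of the pathway, was at 308 FPKM in HFD-3, 145 to 179.9 FPKM in the other 4 HFD livers and 145 to 185 FPKM in ND livers. C1s, for its substrate protease, was at 272 FPKM in HFD-3, 102 to 196 FPKM in the other 4 HFD livers and 166 to 178 FPKM in ND livers. C4b, for a form of the protein that C1s cuts, was at 15.3 FPKM in HFD-3, 4.55 to 8.88 FPKM in the other 4 HFD livers and 7.75 to 10.7 FPKM in ND livers. C4b is uncertain, since C4a and C4b are near-identical copies and the C4b row lies nearly all within a C4a row. That C4a row was at 316 FPKM in HFD-3, 88.8 to 160 FPKM in the other 4 HFD livers and 152 to 236 FPKM in ND livers. Another C4a row on chromosome 20 was at 268 FPKM in HFD-3, 71.7 to 125 FPKM in the other 4 HFD livers and 116 to 193 FPKM in ND livers. The shorter row of C2, another gene of that pathway, was highest in ND-2 (50.2 FPKM) and at 46.5 FPKM in HFD-3. The part of the marker levels in these values was not tested.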
